A study of Mus musculus with 6 samples.

Results

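Cholinergic interneurons of the mouse striatum were taken from single-nucleus RNA sequencing as the nuclei chosen by their deposited values of 3 genes: Chat, Slc5a7 and Slc18a3 had to sum to at least 3. Slc17a7, a glutamatergic marker, and the sum of the oligodendrocyte genes Mog and Mag each had to be at most 1. The rule found 302 of 48834 nuclei, or 0.618%. The wild-type libraries held 55, 54 and 38 of them and the Celsr3 heterozygous libraries 43, 57 and 55, in the order of replicates 1, 2 and 3, which is kept wherever 3 values are given. The study compared flash-frozen, dissected striatum of 3 wild-type samples with 3 samples heterozygous for Celsr3, the gene of a large atypical cadherin of the planar cell polarity pathway, with 1 library per sample. The labels call these biological replicates and give no sex, age, strain, allele or pooling, so p-values measure the spread between these libraries only.

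Striatal cholinergic interneurons are large, sparsely spiny neurons that fire tonically and are the main source of acetylcholine in the striatum. Choline acetyltransferase (Chat) makes the transmitter, the transporter encoded by Slc5a7 takes choline back up into the terminal, and the transporter encoded by Slc18a3 loads acetylcholine into vesicles. The LIM homeodomain factors Lhx8 and Isl1 act in their specification, dopamine acts on them through the receptor encoded by Drd2, and most of their neighbours are GABAergic medium spiny projection neurons.

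Each value below is a mean of the deposited, depth-corrected value per nucleus, called a level, and "detected" means a value of at least 1. The libraries held 7735 to 8875 nuclei, and the original read depth of a nucleus is unknown. Members had a median of 3655 detected genes, from 1607 to 4730, against 2849 over all nuclei. Of 339 nuclei with a sum of at least 3, 37 were removed, 11 by Slc17a7 and 28 by Mog and Mag. In all, 549 nuclei carried a cell barcode that also occurred in another library. For 2 members the barcode occurred in another library, and no 2 members of different libraries shared one.

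Slc18a3 lies inside the Chat gene, on the same strand. In the mouse annotation of GRCm38, Chat spans bases 32408203 to 32465989 of chromosome 14 on the minus strand, and Slc18a3 spans 32462438 to 32464850. The 250 bases before each RefSeq start (GRCm38.p6, minus strand) are shown because Chat was detected in many nuclei that had almost no Slc18a3, so the start upstream of each gene is what a reader would want to compare. Capitals mark TAAT or its reverse complement ATTA, the core bound by homeodomain factors such as Lhx8. The Chat sequence is at chr14:32465910-32466159 and the Slc18a3 sequence at chr14:32464851-32465100.
Chat: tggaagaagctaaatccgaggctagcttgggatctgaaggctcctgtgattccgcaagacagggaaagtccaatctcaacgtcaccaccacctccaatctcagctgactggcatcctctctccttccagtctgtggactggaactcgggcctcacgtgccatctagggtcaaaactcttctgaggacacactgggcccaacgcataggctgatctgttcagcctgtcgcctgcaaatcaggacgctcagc
Slc18a3: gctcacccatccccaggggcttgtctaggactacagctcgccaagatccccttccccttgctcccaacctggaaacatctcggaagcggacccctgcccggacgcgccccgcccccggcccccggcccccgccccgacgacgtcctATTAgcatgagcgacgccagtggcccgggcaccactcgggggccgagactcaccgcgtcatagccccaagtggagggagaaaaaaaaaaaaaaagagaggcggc
The window before Slc18a3 held 1 match and the window before Chat held 0. Of 32851 mouse promoter windows of this length, 18041 (54.9%) held the motif on either strand, so its presence or absence describes only these letters.

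The rule took in 2 kinds of nuclei, and the label fitted only those with high sums. Of 204 members with a sum of at least 5, called high-sum members here, 192 (94.1%) had Lhx8 or Ecel1 detected, and 9 (4.41%) had Rgs9 and Ppp1r1b, both medium spiny neuron genes, summing to at least 3. Of the 98 low-sum members, with a sum of 3 or 4, 9 (9.18%) had Lhx8 or Ecel1 detected and 75 (76.5%) had the medium spiny sum. The low-sum members are therefore called by their rule and not as cholinergic interneurons. They made up 43.6%, 33.3% and 28.9% of wild-type members and 30.2%, 29.8% and 27.3% of heterozygous members. Wild-type replicate 1 had the highest share, and the groups overlapped.

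Just outside the threshold, the 452 nuclei with a sum of 2 had Lhx8 or Ecel1 detected in 2.43% and the medium spiny sum in 84.7%. Just inside it, the 81 nuclei with a sum of 3 gave 3.70% and 80.2%. Tacr1, the substance P receptor gene, stood at 0.124 per nucleus at a sum of 2 and at 0.284 at a sum of 3, while Pde10a, a phosphodiesterase of medium spiny neurons, stood at 22.6 and 20.5. The 2 shares and Pde10a lay close together on the 2 sides of the threshold, while Tacr1 was higher on the inner side. The profile turned over at sums of 4 to 6, where 17, 10 and 4 nuclei had Lhx8 or Ecel1 detected in 35.3%, 40.0% and 75.0%. At sums of 9, 10 and 11 every nucleus had one of these genes, at a sum of 12 the share was 88.9% and at 15 it was 94.4%. Results are given for the members as chosen and for the high-sum members, a limit used because of this turnover.

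**Figure D1:**
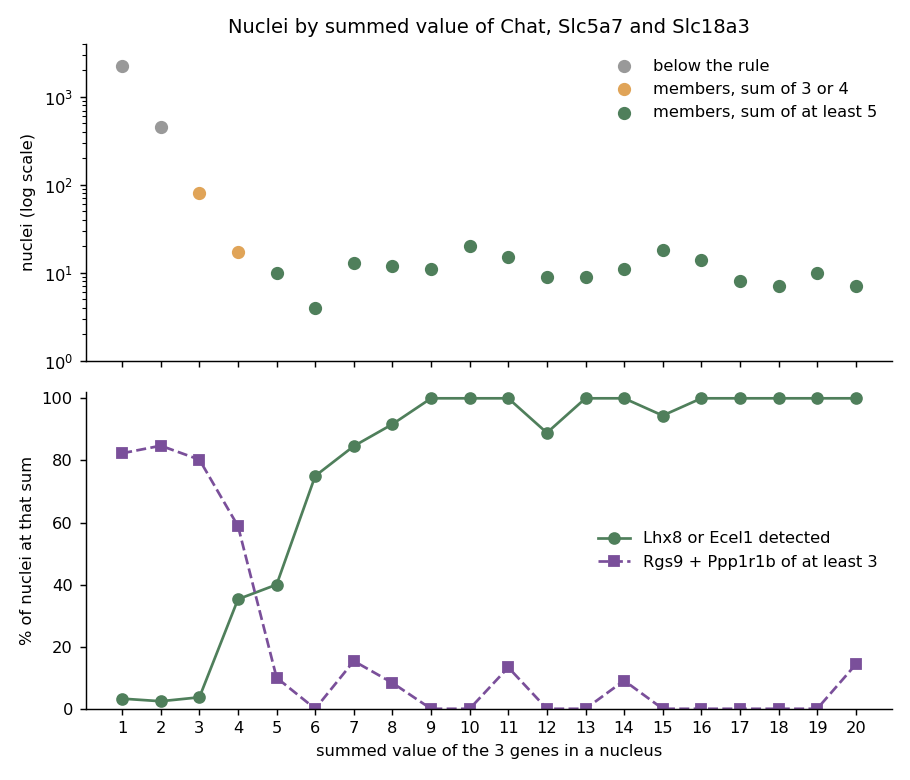
Nuclei at each summed value of Chat, Slc5a7 and Slc18a3 from 1 to 20 (top, log scale) and the percent of them with Lhx8 or Ecel1 detected or with Rgs9 and Ppp1r1b summing to at least 3 (bottom). The 81 nuclei at a sum of 3 resemble the 452 at a sum of 2, and the lines cross between sums of 4 and 5.

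The 2 sets also differed in which of the 3 genes carried the sum. Among the high-sum members Slc5a7 was detected in 100% of nuclei, Chat in 89.7% and Slc18a3 in 47.1%. Chat stood at 4.48, 4.58 and 4.89 in wild-type libraries and at 5.00, 5.15 and 5.10 in heterozygous libraries. Slc5a7 stood at 10.3, 6.94 and 8.89, and at 8.07, 7.97 and 8.85. Slc18a3 was present in every library, at 1.00, 0.639 and 0.630, and at 0.700, 0.775 and 1.05. These values chose the nuclei and are a description only. The ratio of Chat to Slc5a7 was 0.578 in the high-sum members and 3.31 in the low-sum members.

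The 17305 nuclei with the medium spiny sum, taken with no condition on the 3 genes, had Chat detected in 12%, Slc5a7 in 1.36%, and a ratio of 7.39. Chat was detected in 17.0%, 11.7% and 9.22% of these wild-type nuclei and in 12.9%, 11.9% and 10.0% of the heterozygous ones, so it was seen in every library. In nuclei that should lack Chat the share was far lower: 0.516% of 2519 glutamatergic nuclei, 0.606% of 2807 microglial nuclei and 0.449% of 9356 oligodendrocyte nuclei. The median number of detected genes was 3286 in the medium spiny nuclei, 3513 in the glutamatergic, 1931 in the microglial and 1907 in the oligodendrocyte nuclei. The part of gene number in the Chat shares was not tested. Slc5a7 was detected in 1.15%, 1.14% and 1.17% of those 3 sets, near its share in medium spiny nuclei. Medium spiny nuclei had 0.147 of Chat and 0.00537 of Slc18a3 per nucleus, and high-sum members 4.88 and 0.809.

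The rule did not use the remaining fixed markers, Ecel1 and Lhx8. The limit between high and low sums was set from their shares at each sum, so their values in the 2 sets are a description only. Ecel1, a neuronal endopeptidase of the endothelin-converting enzyme family, stood at 2.39, 2.06 and 2.30 in the wild-type high-sum members and at 2.07, 2.60 and 2.48 in the heterozygous ones. Lhx8 stood at 1.81, 2.03 and 1.33, and at 1.93, 2.30 and 1.90. Ecel1 was detected in 88.7% of high-sum nuclei and Lhx8 in 79.4%, and no library lacked either. In the low-sum members the means over 6 libraries were 0.0984 for Ecel1 and 0.0754 for Lhx8. Pou4f1, a marker of habenular cholinergic neurons, was at 0 in every high-sum nucleus, and Tac2 was detected in 0.980% of them. Ngfr, known from basal forebrain cholinergic neurons, was detected in 33 (16.2%). Of 204 high-sum nuclei, 12 had neither Lhx8 nor Ecel1 detected.

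**Figure D2:**
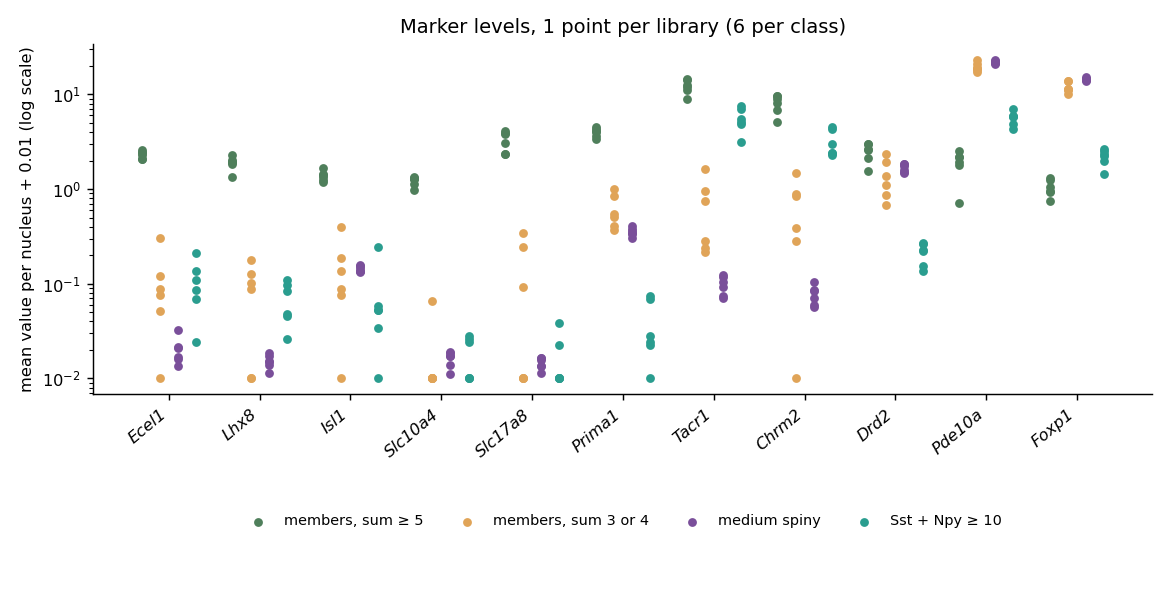
Mean value per nucleus plus 0.01 (log axis) of 11 marker genes, with 1 point per library, in high-sum members, low-sum members, medium spiny neurons and nuclei with Sst and Npy summing to at least 10. Ecel1, Lhx8 and Slc17a8 stand apart in the high-sum members, while Pde10a and Foxp1 place the low-sum members beside the medium spiny neurons.

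Medium spiny neurons were compared with the members within each library, with the library as a block, over genes with a mean of at least 0.2. The class held 12907 nuclei within the same limits on Slc17a7, Mog and Mag, with Rgs9 and Ppp1r1b summing to at least 3, no Chat, Slc5a7 or Slc18a3, and at most 1 for the sum of Sst and Npy and for that of Pvalb and Pthlh. Over the 302 members, 3516 of 6799 genes (51.7%) passed an adjusted p of 0.05 in limma, 1969 higher and 1547 lower in the members. With size-factor scaling 1636 were higher and 1850 lower, so the larger side changed (56.0% and 46.9% higher). Over the high-sum members, 4038 of 7018 (57.5%) passed, 2384 (34.0%) higher and 1654 (23.6%) lower. The median difference over all genes was 0.12 on the log2 scale in the latter. Counts of listed genes below are read against these shares, and all log2 differences are on the log2(level + 0.01) scale.

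Of 8 listed acetylcholine genes, 3 are the rule genes and 4 of the others were tested, and Ache, Prima1 and Slc10a4 were higher in the high-sum members. A gene near 0 in one class passed the filter only through the other and had to differ. The lists of acetylcholine genes, cholinergic markers, peptide receptors and medium spiny markers are therefore given by the values of named genes. Counts and medians of the other lists against a class describe the tested genes and support nothing. Ache, which encodes acetylcholinesterase, stood at 1.77, 0.944 and 1.15 in wild-type libraries and at 1.47, 1.30 and 1.27 in heterozygous ones, against a medium spiny mean of 0.0761. Its difference was 3.95 ± 0.19 (SE), given as a description, since the gene passed the filter through the members. Prima1, the membrane anchor of acetylcholinesterase, averaged 3.99 against 0.344. Slc10a4, a vesicular protein of cholinergic and monoaminergic neurons, averaged 1.21 against 0.00617. Slc44a1, a choline transporter-like gene, differed by -0.12 and did not pass the test.

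Of 13 listed cholinergic markers 7 were tested, and the others were below the filter or set aside as genes of the class rules. Slc17a8, which encodes a vesicular glutamate transporter, stood at 2.32, 4.11 and 3.85 in the wild-type and at 3.83, 3.07 and 2.33 in the heterozygous libraries. Its medium spiny mean was 0.0045, and the difference was 7.79 ± 0.21. Slc17a8, Tacr1, Lhx8 and Isl1 also passed the filter through the members, and their differences are descriptions. Tacr1 averaged 12.2 ± 2.04 (SD, n = 6) against 0.0873, a difference of 6.98 ± 0.12, and Lhx8 differed by 6.96 ± 0.22. Isl1 differed by 3.25 ± 0.14. Over all 302 members the differences of Slc17a8, Tacr1 and Lhx8 were 7.25, 6.45 and 6.43.

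By size, the 15 genes most above medium spiny neurons in the members included Qrfprl, a G-protein-coupled receptor gene, at 7.39, and Slc17a8. Pde3a, a cyclic nucleotide phosphodiesterase, followed at 7.07, Cpne4, a calcium-binding copine, at 6.91, and Gm49678 at 6.89. They also included Tacr1, Lhx8, Sfta3-ps at 6.39, Ecel1 at 6.37, Elavl2, an RNA-binding protein gene, at 6.37, Chrm2, Popdc3 at 5.93, 9330158H04Rik at 5.84 and Slc10a4 at 5.70. Cpne4 in the high-sum members averaged 29.1 ± 5.06 and Elavl2 19.2 ± 2.67 (SD, n = 6). The 10 genes most below included Gm26713 at -2.91, Gm49906, Tll1 at -2.40, Sema5b at -2.34, Ano2 at -2.32, Myo3b, Mhrt, Spata13 and Syt6 at -2.20. Ano2, a calcium-activated chloride channel gene, was at 0 in all high-sum members and at 0.780 in medium spiny neurons. The 15 genes passed the filter through the members and the 10 through the medium spiny neurons, so these values are descriptions.

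Among 13 of 33 listed forebrain transcription factors that were tested, 6 were higher and 5 lower in the high-sum members, with a median of -0.08. The zinc-finger genes Zic1 and Zic4 differed by 4.29 and 4.38 and Zfhx4 by 1.63. Factors of medium spiny neurons were lower: Foxp1 averaged 1.03 against 14.4 (-3.82 ± 0.10), Foxp2 differed by -4.44, Bcl11b by -3.01, Meis2 by -5.62 and Ebf1 by -5.90. In the low-sum members the mean of Foxp1 was 11.9.

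Receptors for the transmitters that reach these cells differed by gene. Chrm2, an inhibitory muscarinic receptor that acts as an autoreceptor on cholinergic neurons, averaged 8.03 ± 1.78 against 0.0667 and differed by 6.71 ± 0.14. Chrm1, Chrm3 and Chrna7 differed by -4.17, -3.49 and -2.53. These were the 4 tested of 14 listed acetylcholine receptor genes. Chrm2 passed the filter through the members and Chrm1 and Chrna7 through the medium spiny neurons, so these values are descriptions. Drd2 stood at 1.55, 3.00 and 2.67 in wild-type and 2.57, 2.10 and 2.95 in heterozygous libraries. Its medium spiny mean was 1.66, over projection neurons of both dopamine receptor types, and the difference was 0.54 ± 0.11 (limma adjusted p = 0.00134). Drd1 differed by -2.29.

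Of 21 listed peptide and opioid receptor genes 5 were tested. Tacr3, the neurokinin B receptor, stood at 0.548, 1.17 and 0.370 in wild-type and 0.767, 1.225 and 1.50 in heterozygous high-sum members. It differed by 5.23, and the orexin receptor gene Hcrtr2 by 4.42. Both were near 0 in medium spiny neurons and passed the filter through the members, so their differences are descriptions. Oprd1, the delta opioid receptor, averaged 1.68 against 0.293 and differed by 2.48. The mu opioid receptor gene Oprm1 stood at 0.871, 1.33 and 1.19 in wild-type and 0.833, 0.850 and 1.625 in heterozygous high-sum members, and differed by 1.62.

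Ion channel genes moved in both directions, and more of those tested were lower. Of 30 pacemaking and potassium channel genes tested of 38, 9 were higher and 17 lower, with a median of -0.57. The pacemaker channel gene Hcn2 averaged 0.629 against 0.324 and differed by 0.93. Kcnt2, a sodium-activated potassium channel, averaged 17.9 against 0.356, a difference of 5.60. Kcnc2, of the fast delayed-rectifier family, differed by 3.92, Kcnj3, a G-protein-gated channel subunit, by 2.12 and Kcnb2 by 1.20. Kcnq5, of the M-type channels, stood at 0.895 against 17.9 (-4.40), the channel-interacting gene Kcnip2 differed by -4.36, the large-conductance channel Kcnma1 by -1.78 and the sodium leak channel Nalcn by -0.55.

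Of 21 sodium and calcium channel genes tested of 22, 5 were higher and 14 lower, with a median of -0.81. Cacna2d2, an auxiliary calcium channel subunit, averaged 3.43 against 0.493 and differed by 2.78. The sodium channel Scn9a differed by 2.50, the N-type calcium channel Cacna1b by 1.31 and the L-type channel Cacna1d by 0.66. Cacna1e differed by -3.00, Cacnb2 by -4.46 and the sodium channel beta subunit Scn4b by -3.13. Among 22 glutamate receptor genes tested of 24, 5 were higher and 16 lower, with a median of -1.32. The NMDA receptor gene Grin3a stood at 3.87, 4.06 and 4.11 in wild-type and 3.03, 2.80 and 3.12 in heterozygous libraries, against a medium spiny mean of 0.150 (4.45 ± 0.16, again a gene that passed the filter through the members). Grin2d differed by 2.04 and the kainate receptor genes Grik1 and Grik4 by 3.00 and 1.77, whereas Grm5 differed by -4.19 and Grin2a by -3.78. The GABA-A receptor genes gave 2 higher and 8 lower of 11 tested of 13, with Gabra3 at 2.45 and Gabrd, of extrasynaptic receptors, at -3.87.

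**Figure D3:**
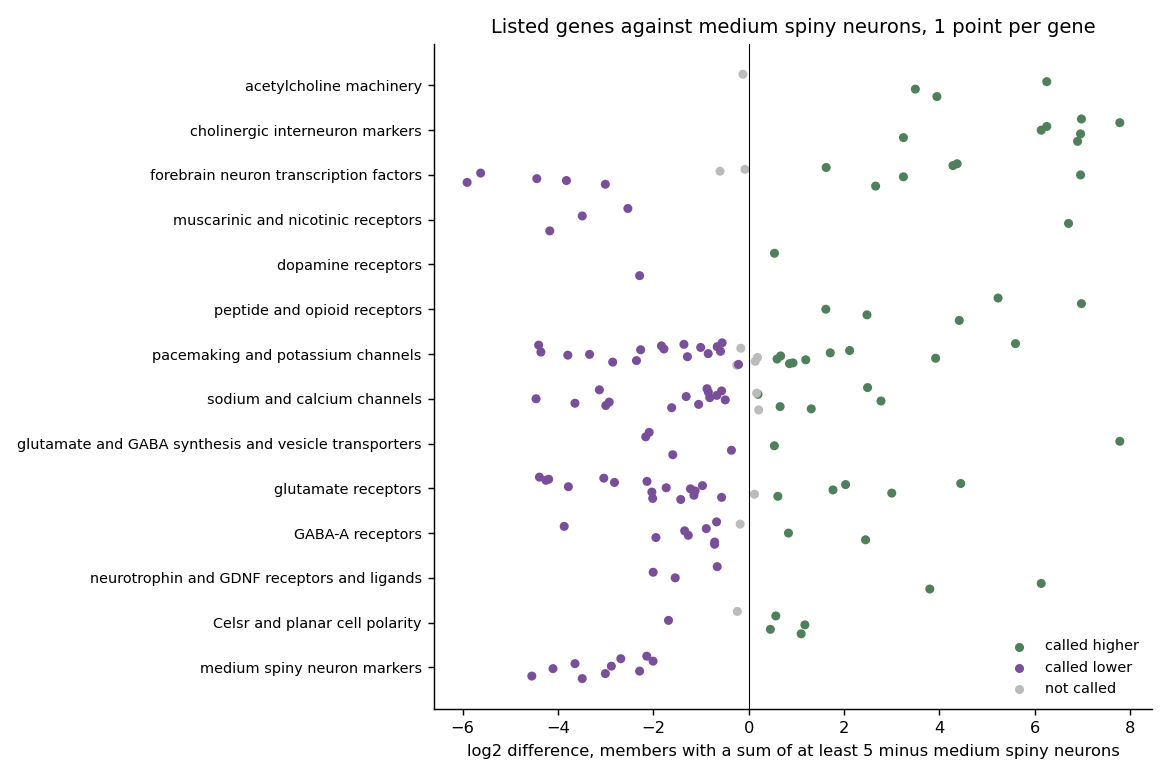
Log2 difference of each tested gene of 14 lists, high-sum members minus medium spiny neurons, with 1 point per gene. The 7 tested cholinergic markers and 5 peptide and opioid receptor genes lie above 0, where the filter placed genes near 0 in medium spiny neurons, and 16 of 22 glutamate receptor genes were called lower.

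GABA genes were lower than in medium spiny neurons. Gad1 and Gad2, which encode the enzymes that make GABA, differed by -1.59 and -0.36, and the vesicular GABA transporter Slc32a1 by -2.16. Gad1 or Gad2 was detected in 140 of the 204 high-sum nuclei (68.6%), and Slc32a1 in 20 (9.80%). In glutamatergic, microglial and oligodendrocyte nuclei, which should lack these genes, Gad1 or Gad2 was detected in 24.7%, 35.6% and 34.7%, and Slc32a1 in 10.7%, 13.4% and 12.6%. The Slc32a1 share of the high-sum members was thus no higher than this background, and their Gad1 or Gad2 share was above it. The median number of detected genes was 3778.5 in the high-sum members, more than in those 3 sets. Gdnf, a neurotrophic factor gene, averaged 0.739 against 0.0434 and differed by 3.80, while the neurotrophin receptors Ntrk2 and Ntrk3 differed by -1.54 and -2.00. Gdnf passed the filter through the members, so its difference is a description. Of the Celsr and planar cell polarity list, 6 of 15 were tested, 4 were higher and 1 was lower. Celsr2 differed by 0.46, Ankrd6 by 1.10, Prickle1 by 0.57, Dvl1 by 1.18 and the receptor Fzd3 by -1.68.

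Other interneurons were a closer reference. The class with Sst and Npy of at least 3, the same limits and none of the 3 rule genes held 2194 nuclei. Against it 3263 of 6686 genes (48.8%) passed, 1999 higher and 1264 lower in the members. Size-factor scaling gave 1361 higher and 1651 lower, so the larger side changed here too. That class carried other cells: the oligodendrocyte gene Mbp averaged 7.42 in it and 3.96 in its stricter form. That form, 423 nuclei with Sst and Npy of at least 10, was compared with the high-sum members instead. In that comparison 2287 of 7210 genes (31.7%) passed, 1011 (14.0%) higher and 1276 (17.7%) lower, with a median over all genes of -0.01.

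Cholinergic markers near 0 in the Sst and Npy nuclei again passed the filter only through the members. Slc17a8 differed by 7.79 ± 0.31, Prima1 by 7.04, Slc10a4 by 6.23, Gdnf by 5.33, Zic4 by 5.28 and Isl1 by 4.82. Drd2 averaged 2.47 against 0.201 and differed by 3.57. Tacr1 and Chrm2 were shared in part. Tacr1 averaged 12.2 against 5.54, a difference of 1.17 ± 0.12, and Chrm2 averaged 8.03 against 3.13, a difference of 1.38 ± 0.19.

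Of 33 listed forebrain transcription factors 16 were tested, 7 were higher and 7 lower in the high-sum members, with a median of -0.28. Zic4 and Isl1, given above, were among the higher. Among the lower, Sox6 differed by -6.06, Satb1 by -4.59, Lhx6 by -2.47 and Maf by -2.08. The neuronal nitric oxide synthase gene Nos1 differed by -4.97, Slc32a1 by -3.63, Gad1 by -2.21, Gad2 by -1.41 and the muscarinic receptor Chrm3 by -5.30. Among the genes named by size, Sox2ot differed by -6.60 and the HMG-box genes Tox and Tox3 by -6.54 and -6.28, and Insrr, of the insulin receptor family, by 6.06. Insrr passed the filter through the members, and Tox and Tox3 through the Sst and Npy nuclei, so these differences are descriptions. Of 29 potassium and pacemaking genes tested, 4 were higher and 20 lower (median -0.70), and of 21 glutamate receptor genes 1 was higher and 14 lower (median -1.15). Kcnt2 had the largest difference upward of the former, 4.16, and Grik1 was at -3.10. Among the high-sum members, 2 nuclei with Lhx6 detected had Sst and Npy of at least 10 themselves. The summed level of 4 Sst and Npy markers was 9.19 in wild-type replicate 1 and 0.194 to 0.725 in the other libraries.

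The class with Pvalb and Pthlh of at least 3, and Sst and Npy of at most 1 under the same limits, was small, with 55 nuclei and 5 to 16 per library. Against it 549 of 6979 genes (7.87%) passed over all members and 874 of 7075 (12.4%) over the high-sum members. Without wild-type replicate 2 the first count was 353. For the high-sum members Slc17a8 differed by 8.31, Kcnt2 by 7.72, Prima1 by 7.47, Tacr1 by 7.45, Ecel1 by 7.38 and Lhx8 by 7.03. In the Pvalb and Pthlh nuclei these genes averaged from 0 for Slc17a8 to 0.361 for Kcnt2. They passed the filter through the members, so their differences are descriptions. Genes lower in the high-sum members included the receptor tyrosine kinase genes Kit at -5.48 and Egfr at -4.92, the sulfotransferase gene Hs3st2 at -5.40, and Sox5, a transcription factor, at -3.97. Kit, Egfr, Hs3st2 and Sox5 passed the filter through the Pvalb and Pthlh nuclei. Of 5 oligodendrocyte markers tested 3 were lower in the high-sum members, and of 2 astrocyte markers 1, against 5.88% of all genes. The part of other cells in this small class was not tested. Among the 15 genes most above each of the 3 classes, 6 were common to all: Slc17a8, Qrfprl, Lhx8, Gm49678, Ecel1 and Cpne4. The same members were on 1 side of all 3 comparisons, so this overlap is a description only.

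The high-sum members were not uniform. Slc17a8 was detected in 157 of the 204 (77.0%) and Ngfr, the low-affinity neurotrophin receptor known from basal forebrain cholinergic neurons, in 33 (16.2%). Only 7 nuclei had both, 150 had Slc17a8 alone, 26 had Ngfr alone and 21 had neither. Slc17a8 was detected in 16 of 31, 31 of 36 and 23 of 27 wild-type nuclei and in 28 of 30, 29 of 40 and 30 of 40 heterozygous nuclei. Ngfr was detected in 9, 3 and 2 nuclei, and in 0, 9 and 10. Wild-type replicate 1 thus had the lowest Slc17a8 share, and heterozygous replicate 1 had no Ngfr nucleus. This split was chosen after the values were seen and is given with no test. Whether the nuclei with Ngfr or without Slc17a8 are striatal interneurons was not tested, so the label is less sure for them.

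**Figure D4:**
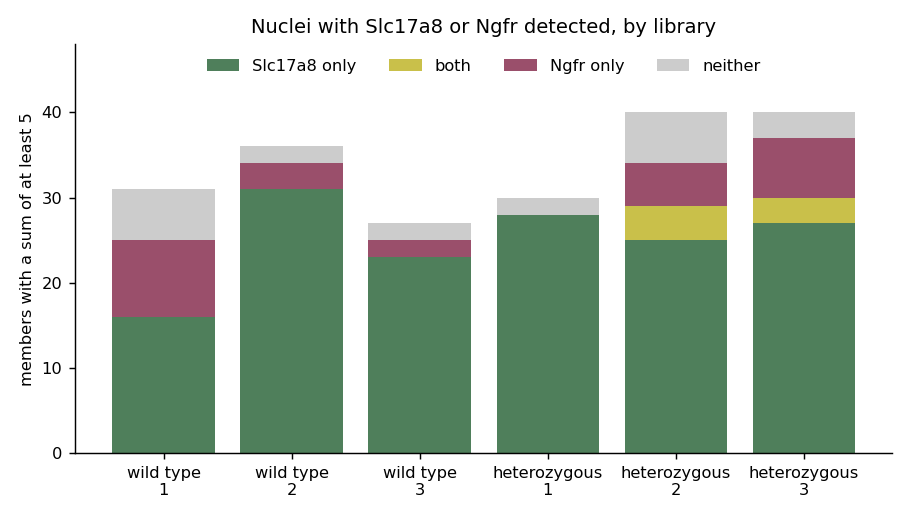
High-sum members of each library, stacked by detection of Slc17a8 alone, both genes, Ngfr alone or neither. Nuclei with Slc17a8 alone are the most frequent in every library, and the 7 nuclei with both come from heterozygous replicates 2 and 3.

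Other genes followed the same division. Rgs6, a regulator of G-protein signalling, averaged 12.5 in Slc17a8-detected nuclei, 0.340 in undetected ones and 0.0303 in Ngfr-detected ones. By library its mean was 10.2 to 15.1 on the detected side. Cpne4 averaged 36.7 against 2.72, Ptchd4 16.6 against 1.43, Kcnt2 22.4 against 2.40, the protein kinase C gene Prkca 17.9 against 2.09 and the secreted-factor gene Ndnf 1.80 against 0.0851. Drd2 averaged 3.14 against 0.298 and was detected in 133 of the 157 nuclei with Slc17a8 and in 7 of the 33 with Ngfr. Tacr1 averaged 14.8 against 3.15 and Gdnf 0.930 against 0.128.

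On the other side, Kcnc2 averaged 1.25 with Slc17a8 and 19.1 without, and 23.3 with Ngfr. The cGMP-dependent kinase gene Prkg1 averaged 0.452 against 7.04, Shisa9, an AMPA receptor auxiliary protein, 0.331 against 4.89, the protocadherin Pcdh7 0.669 against 8.17, and the guidance gene Slit2 0.0318 against 1.49. Ntsr1, a neurotensin receptor, was detected in 15 of the 33 nuclei with Ngfr and in 1 of the other 171. Genes of cholinergic neurons had these means over all nuclei with and without Slc17a8. Ecel1 averaged 2.33 and 2.32, Chrm2 7.62 and 9.19, Lhx8 2.04 and 1.49, Prima1 4.34 and 2.98, Isl1 1.48 and 0.957, and Slc10a4 1.34 and 0.723, the last higher with Slc17a8 in 6 of 6 libraries. Heterozygous replicate 1 had only 2 nuclei without Slc17a8, and Lhx8, Isl1, Prima1 and Chrm2 were at 0 in both. Of the 12 high-sum nuclei with neither Lhx8 nor Ecel1, 9 also lacked Slc17a8. Chat averaged 5.13 and 4.04 and Slc5a7 8.57 and 8.04, but the rule required a sum over these genes of both sides.

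Genes of other cells also had higher means over all nuclei without Slc17a8. Npy averaged 0.134 with and 2.77 without it, Sst 0.185 and 2.13, and Nos1 0.102 and 1.49. Npy was detected in 12.7% of nuclei with and 10.6% without it, and Sst in 15.9% and 14.9%. By library, Npy was higher with Slc17a8 in 4 and lower in 2, and Sst was higher in 3 and lower in 3. Wild-type replicate 1 carried much of the difference in means. Its nuclei without Slc17a8 had 8.53 of Npy, 6.27 of Sst and 3.67 of Nos1. The other libraries had at most 0.10, 0.50 and 1.00. Mbp averaged 1.32 with and 4.70 without it, and Apoe, an astrocyte and microglia gene, 1.31 and 4.81. The summed level of 7 oligodendrocyte markers was 2.29 to 4.38 over libraries with Slc17a8 and 3.00 to 32.0 without, and the part of these genes in the division was not tested. Kcnc2 was detected in 69 high-sum nuclei, 33 with Slc17a8 and 36 without.

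Lhx6, a transcription factor of interneurons from the medial ganglionic eminence, was detected in 36 of the 302 members. Between these and the other 266, 13 of 2880 genes (0.451%) passed, 2 higher and 11 lower. Phactr1 differed by -2.88, Foxp1 by -3.03 and Cacnb2 by -3.64, all genes that were high in medium spiny neurons, and Sdk1, an adhesion gene, by 1.07. The low-sum nuclei were divided unequally: 3 of the 36 Lhx6-detected members and 95 of the other 266 had a sum of 3 or 4. Within the high-sum members 0 of 2858 genes (0.0%) passed in limma, with a smallest adjusted p of 0.818 and 124 (4.34%) at an unadjusted p under 0.05. The count over all members was 60 without wild-type replicate 1 and 1 to 10 without any other library. The Lhx6-detected side held 2 to 10 nuclei per library, or 2 to 9 of the high-sum members. In wild-type replicate 1 it held 2, both high-sum nuclei with Sst and Npy of at least 10 and Slc17a8 undetected. The part of these 2 nuclei in the counts was not tested. The 0 in the high-sum members cannot decide whether Lhx6 divides them, since the value of wild-type replicate 1 rests on these 2 nuclei. Median detected genes were 3856 with and 3605.5 without Lhx6. Of the 33 high-sum nuclei with Lhx6, 27 also had Gad1 or Gad2 detected, a share not tested.

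Zic4, a zinc-finger factor expressed in septal progenitors, was detected in 83 members, and 736 of 2841 genes (25.9%) differed from the other 219. The 10 of smallest p were all lower with Zic4, among them Phactr1 (-3.20), Il1rapl1 (-2.70), Kctd16 (-5.26), Celf2 (-1.97), Ppp3ca (-2.40), Foxp1 (-3.15), Nkain2 (-1.56) and Gria2 (-2.02). Here 4 of the 83 and 94 of the 219 were low-sum nuclei, and median detected genes were 3766 and 3549. Within the high-sum members 18 of 2778 genes (0.648%) passed, 17 lower and 1 higher. Nkain2 differed by -0.90 ± 0.12 (limma adjusted p = 0.0110), Ppp3ca by -1.33, Gria2 by -1.09 and Apoe by -2.29. Pld5 was the gene that was higher, by 0.81 ± 0.17 (limma adjusted p = 0.0455).

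The share of members did not separate the genotypes. Members made up 0.711%, 0.684% and 0.470% of the wild-type nuclei and 0.545%, 0.682% and 0.620% of the heterozygous ones, 0.622% ± 0.132 against 0.615% ± 0.0684 (mean ± SD over 3 libraries; p = 0.9, two-sided exact permutation test). All exact permutation tests here were two-sided, and with 3 against 3 libraries they cannot go below 0.1. High-sum members made up 0.401%, 0.456% and 0.334%, and 0.380%, 0.478% and 0.451% (p = 0.5, exact permutation). Per 100 medium spiny nuclei the members numbered 1.79 ± 0.588 and 1.79 ± 0.286 (SD over 3 libraries; p = 1.0, exact permutation). The median number of detected genes in high-sum members was 3712, 3724.5 and 3729 in wild-type and 3780, 3820.5 and 3957.5 in heterozygous libraries, 2 groups that did not overlap (p = 0.1, exact permutation). Over all members the medians averaged 3603 ± 96.6 and 3700 ± 33.0 (SD over 3 libraries; p = 0.2, exact permutation), with overlap.

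Celsr3, the targeted gene, was low in these cells. Its level in the members was 0.127, 0.259 and 0.211 in wild-type and 0.140, 0.0702 and 0.218 in heterozygous libraries. The groups overlapped, at means of 0.199 ± 0.0667 and 0.143 ± 0.0741 (SD over 3 libraries; p = 0.5, exact permutation), a heterozygous level of 71.7% of wild type. The log2 difference was -0.53 ± 0.46 (limma adjusted p = 0.885, without the filter on low genes). In medium spiny nuclei the levels were 0.118, 0.141 and 0.135 against 0.0717, 0.0935 and 0.0903, 64.9% and without overlap (p = 0.1, exact permutation). Heterozygous high-sum members stood at 69.7% of wild type, and the groups overlapped. The labels do not say which part of the gene was altered, so its level is no full check of the genotype.

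No gene passed the genotype test in the members: 0 of 2282 genes (0.0%) in limma, with 123 (5.39%) at an unadjusted p under 0.05 and a smallest adjusted p of 0.129. For 231 genes (10.1%) the 3 wild-type and 3 heterozygous libraries did not overlap, 117 (5.13%) higher and 114 (5.0%) lower in heterozygous libraries. In the high-sum members 0 of 1315 passed, 66 (5.02%) were at an unadjusted p under 0.05, and 137 (10.4%) did not overlap. Of the 281 listed genes 101 were tested in the members, 8 did not overlap (7.92%), and their median difference was 0.04 against 0.03 over all genes. In the high-sum members 74 were tested and 12 did not overlap (16.2%), with a median of 0.10 against 0.03. Both counts include Chat, which chose the nuclei, so its value is a description. The heterozygous high-sum nuclei also had more detected genes, as given above, and its part in these counts was not tested. The summed level of 7 oligodendrocyte markers in high-sum members was 2.72 to 7.06 in wild-type and 4.27 to 6.45 in heterozygous libraries, and that of 12 medium spiny markers 4.22 to 5.84 and 3.97 to 4.72. The difference of the genotype effect from that in medium spiny neurons passed for 0 of 2282 genes (0.0%) in limma, with 94 (4.12%) at an unadjusted p under 0.05. This fit used all members, 84 of which had the medium spiny sum, and was not run on the high-sum members alone.

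The 5 lower and 5 higher genes of smallest unadjusted p among those without overlap are given as values. Gm48006, an antisense gene, stood at 1.89, 2.00 and 1.92 in wild-type and 1.02, 0.912 and 0.818 in heterozygous members (-1.07 ± 0.16, limma adjusted p = 0.129). The groups did not overlap. Its high-sum values were 1.10, 2.28 and 1.93 against 1.00, 0.875 and 0.700, also without overlap. The noncoding RNA 4930509J09Rik stood at 2.13, 1.52 and 1.89, and at 1.12, 0.702 and 0.764 (-1.11 ± 0.22), also apart in both sets. The antisense genes 9630028H03Rik and Gm42439 differed by -1.27 ± 0.30 and -0.85 ± 0.21. Whether counting used strand is not given in the sources used here, so reads of an antisense gene and of its partner cannot be told apart.

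Ctnna3, which encodes a catenin of cell junctions, stood at 7.31, 5.81 and 5.61 in wild-type and 3.65, 4.0 and 2.82 in heterozygous members (-0.84 ± 0.18). Its levels in the high-sum members were lower and overlapped, at 1.94, 3.69 and 3.26, and at 1.77, 2.10 and 1.73. Of the 5 genes with higher values in heterozygous members, Zfp532, a zinc-finger gene, stood at 0.655, 0.556 and 0.447 against 0.930, 0.912 and 1.02. Itfg1, an integrin alpha FG-GAP repeat gene, stood at 0.745, 0.648 and 0.763 against 1.14, 1.04 and 1.00, and Pcdh17, a protocadherin, at 0.745, 0.611 and 0.553 against 1.00, 0.930 and 0.927. Gpc6, a cell-surface heparan sulfate proteoglycan, differed by 0.69 ± 0.21 and Lars2, a mitochondrial leucyl-tRNA synthetase, by 0.62 ± 0.19. Of these 10 genes, 4 stayed apart in the high-sum members, namely Gm48006, 4930509J09Rik, Itfg1 and Pcdh17. In medium spiny nuclei Gm48006, 4930509J09Rik, Ctnna3, Gm42439, Zfp532, Pcdh17 and Lars2 were also apart, in the same direction. Itfg1, Gpc6 and 9630028H03Rik overlapped there. Heterozygous medium spiny nuclei stood at 68.9% of wild type for Gm48006, 68.6% for 4930509J09Rik and 126% for Pcdh17. For the genes apart in both, the shift is thus not particular to the members. Gpc6 stood at 161% of wild type in heterozygous members and at 97.7% in heterozygous medium spiny nuclei. Itfg1, at 113%, and 9630028H03Rik, at 69.3%, had the same direction in medium spiny nuclei as in the members. The members include the low-sum nuclei, most of them with the medium spiny sum, and their part in this likeness was not tested.

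**Figure D5:**
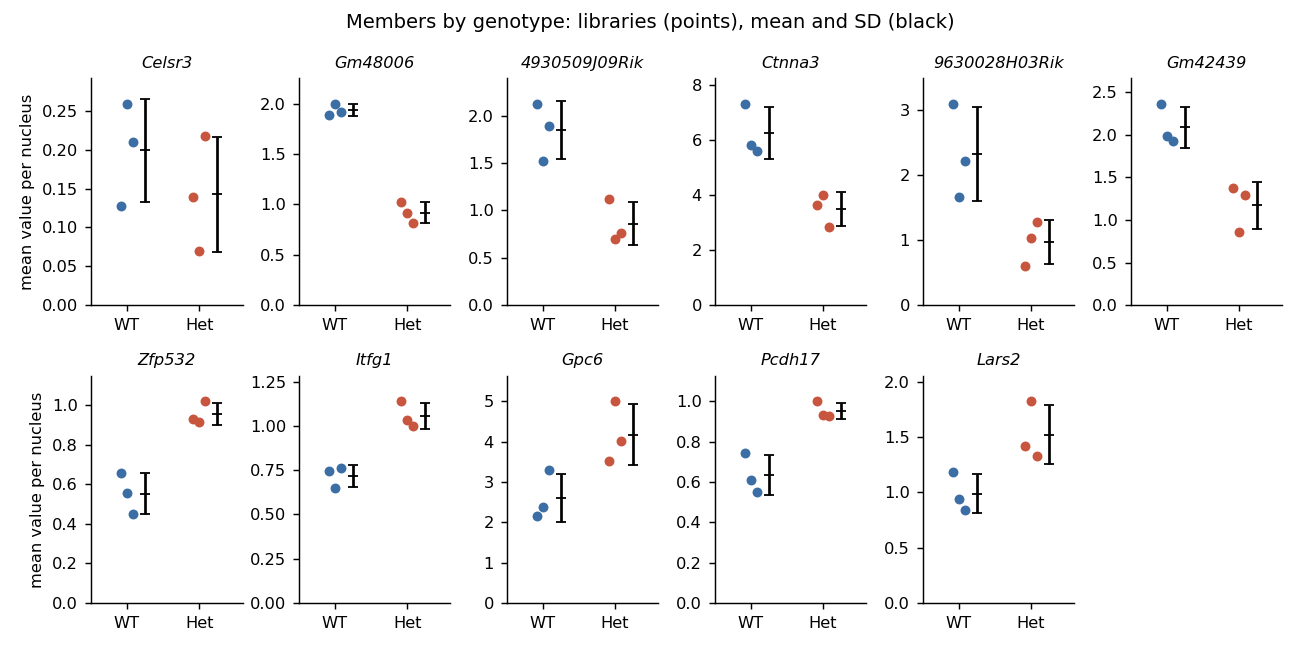
Level of Celsr3 and of the 5 higher and 5 lower genes of smallest unadjusted p whose groups do not overlap, in the members of each wild-type (WT) and heterozygous (Het) library, with mean and SD in black. The Celsr3 groups overlap and the 10 genes do not, which is how they were chosen.

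Of the 74 listed genes tested in the high-sum members, 6 (8.11%) were at an unadjusted p under 0.05, against 5.02% of all 1315 genes, and none passed adjustment in limma. Over all members the share went the other way, with 2 of 101 listed genes (1.98%) against 5.39% of all 2282. The values that follow are of the high-sum members. Chrm2 stood at 9.61, 8.89 and 9.63 in wild-type and at 5.10, 6.85 and 8.10 in heterozygous libraries, with no overlap (-0.51 ± 0.18, limma adjusted p = 0.965). Grin3a, given above, differed by -0.43 ± 0.13, and Gabra3 stood at 1.10, 1.11 and 1.07 against 0.833, 0.850 and 0.750 (-0.43 ± 0.18). Gria2, an AMPA receptor gene, stood at 2.19, 1.81 and 2.00 against 3.53, 2.80 and 2.58 (0.56 ± 0.17). The others were Foxp1 (0.46) and Kcnq5 (0.77), and the smallest limma adjusted p of the 74 was 0.950. Over all members Kcnq5 differed by -0.07 ± 0.23 and its groups overlapped. There, no tested gene of the lists that hold Chrm2, Foxp1 and Kcnq5 was at an unadjusted p under 0.05. Of 19 glutamate receptor genes tested 1 was, and of 8 GABA-A receptor genes 1. Isl1 did not overlap between genotypes in the high-sum members, while Drd2, Tacr1, Slc17a8 and Lhx8 did.

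Mid1 and Rpl29 were followed because their levels did not overlap between genotypes in medium spiny neurons. Mid1, a ubiquitin ligase gene, averaged 0.0825 in wild-type and 0.259 in heterozygous medium spiny nuclei, without overlap. In the members it stood at 0.655, 0.759 and 0.50 against 0.395, 0.930 and 0.691, with overlap and a difference of 0.01 ± 0.32 (limma adjusted p = 0.995). Rpl29, a ribosomal protein gene, stood at 0.364, 0.278 and 0.263 against 0.209, 0.0877 and 0.200 in the members, without overlap (-0.90 ± 0.38, limma adjusted p = 0.885 without the filter). Among high-sum members it overlapped, at 0.419, 0.278 and 0.259 against 0.267, 0.10 and 0.200. Heterozygous members stood at 54.9% of wild type and heterozygous medium spiny neurons at 44.3%.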

How the data were processed

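Single-nucleus libraries of frozen striatum were analysed from 1 deposited table of 24841 genes and 48834 nuclei. Each column name gave its library. The submitters' processing notes name Cell Ranger, Seurat 4.1 and the builds mm10 and GRCm38. The deposited values were taken as a score: whole numbers that the authors had corrected for depth, as read from the values themselves. Their total per nucleus ran from 4523 to 10638 with a coefficient of variation of 10.7%. Depth is therefore unknown, and no counting intervals were computed.

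Level was the mean per nucleus of a library and class. Fits used limma 3.58.1 in R 4.3.3, with a trended empirical Bayes prior, on log2(level + 0.01), which understates the change of low genes. The fit of the difference in genotype effect from medium spiny neurons used a prior without trend. Benjamini-Hochberg adjustment ran over all genes tested, and an adjusted p under 0.05 was called. Genotype fits needed a mean of at least 0.02 and an average summed value of at least 30 per library. Class pairs needed a mean of at least 0.2 and splits of members at least 0.5, with the library as a block and the genes of the class rules left out. Single values were tested with exact permutation tests (scipy 1.17.1, Python 3.11.15). On simulated data, the genotype fit (2240 genes) recovered 41% of changed genes at 2-fold and 75% at 4-fold, and the class-pair fit (7237 genes) 55% and 79%. The simulation drew counts with a fixed spread between libraries and changed many genes at once. These shares are therefore a check of the fits and not the power of these data.

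The members and gene lists were chosen with earlier results of these data known. Named were Celsr3, Mid1 and Rpl29, tested genes of the 24 lists, the 15 called genes most above and 10 most below each class, the 10 of smallest p in the splits and, with no genotype call, the 5 higher and 5 lower genes of smallest p whose groups did not overlap. Alternatives were another pseudocount, filter and scaling, each library left out, array weights, a replicate block and stricter members. Doublets were not called beyond the limits on Slc17a7, Mog and Mag. A few genes that these rules name are not reported here.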

Additional observations from a re-analysis of the deposited data

How the results depend on the processing

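Of the alternatives to the counts, shares and Celsr3 value, 81 gave the same call or a value within the stated limits, 17 moved and 6 reversed. With no filter on low values the genotype count was 2 (Gm48006 and 9630028H03Rik, both at a limma adjusted p of 0.0497), and with array weights it was 1 (Gm48006, 0.0440), against 0. With no filter the class counts were 6712 for medium spiny, 5456 for Sst and Npy and 1328 for Pvalb and Pthlh nuclei. Against Sst and Npy of at least 10 the members gave 1882. Against Pvalb and Pthlh, high-sum members gave 874, and leaving out 1 library gave 353 to 460. The Lhx6 count was 34 with a pseudocount of 0.05, 115 with no filter, 0 in high-sum members and 1 to 60 with a library left out. The Zic4 count was 18 in high-sum members. The share difference, heterozygous minus wild type, was -0.00647 percentage points and became 0.0394 in high-sum members, 0.0288 with Rgs9 and Ppp1r1b of at most 2, 0.0518 for Slc17a8-detected high-sum members and -0.0823 to 0.0381 with a library left out. Mid1, at 0.01, became -0.00243 with size-factor scaling, -0.18 in high-sum members, -0.15 with Rgs9 and Ppp1r1b of at most 2, and -0.15, -0.26 and -0.05 without wild-type replicate 3, heterozygous replicate 2 and heterozygous replicate 3, with a highest value of 0.35 without heterozygous replicate 1. Celsr3 ran from -0.88 to -0.12 with a library left out. Size-factor scaling moved the median of all genes against Sst and Npy nuclei from 0.13 to -0.000132 and the higher share of called genes from 61.3% to 45.2%. Of the alternatives for single named genes, 982 kept their call, 3 gained it, 6 reversed (all Mid1) and 14 lost it, all of Gna14, Pparg or Adamts5 against Pvalb and Pthlh nuclei with a library left out. The causes were not tested. Because depth is unknown, low levels such as that of Celsr3 have no detection limit here.

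Deviations from the genotype mean had correlations of -0.037, -0.078 and -0.038 between same-numbered libraries. With 3 libraries per genotype and 38 to 57 members in each, these values cannot decide whether the replicate numbers pair the libraries. With the replicate block, 0 genes passed in the genotype fit and 0 in the difference from medium spiny neurons, and Celsr3 was at -0.53.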

Other observations

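Noncoding genes made up 150 of the 2270 tested genes with an annotation match (6.61%). They made up 40 of 113 genes (35.4%) that were lower without overlap in heterozygous members and 0 of 117 that were higher. In the high-sum members the counts were 18 of 55 (32.7%) and 1 of 82. The median log2 difference of noncoding genes in the members was -0.25, against 0.04 for the others. Whether counting used strand is not given in the sources used here.

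Chat in medium spiny nuclei was seen on both dopamine receptor sides. Among 3753 nuclei of the Drd1 side it was detected in 18.3%, 11.3% and 10.4% of nuclei in wild-type libraries and 13.6%, 10.2% and 9.33% in heterozygous ones. Among 4973 nuclei of the Drd2 side the shares were 18.2%, 14.6% and 8.88%, and 12.6%, 13.2% and 11.1%. Wild-type replicate 1 was highest on both sides.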
